A study of Mus musculus with 8 samples.

Results

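The BCL2 family decides whether the outer membrane of the mitochondrion stays closed, and 10 of its genes were described here across all libraries of a mouse retina RNA sequencing series. They were taken by name from a table of 26824 genes, in which each occurred once, and all 10 passed the filter on low counts along with 20167 genes in total. The comparison was between 3 libraries of wild-type mice (WT 1 to WT 3) and 5 libraries labelled as knockouts of Kv8.2 (KO 2 to KO 6), a silent voltage-gated potassium channel subunit of photoreceptors encoded by Kcnv2. Every library came from the 2 pooled retinas of an individual mouse aged 1 month and kept without treatment. The strain and the way the gene was disrupted are not given in the sources used here. The 2 libraries labelled KO that the authors left out are not named there, so all 5 were kept.

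As background, cells of the retina, photoreceptors included, can die by the mitochondrial pathway of apoptosis. BAX and BAK form pores in the outer mitochondrial membrane and release cytochrome c, which activates caspases through APAF1. BCL2, BCL-XL (encoded by Bcl2l1) and MCL1 hold BAX and BAK in check, and BH3-only proteins such as BIM (Bcl2l11), PUMA (Bbc3), BID, BAD and BMF relay death signals by binding either side. Much of the control of these proteins happens after transcription, so the transcript levels below are not protein levels.

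Depth was 17759146 to 25188870 counts per library. Kcnv2 was present everywhere, at 519 to 551 CPM (counts for each 1e+06 counts of a library, scaled by TMM, the trimmed mean of M-values) in WT and at 398 to 585 CPM in the libraries labelled KO. Its log2 fold change was -0.24 (SE 0.14, edgeR adjusted p-value 0.275), and without KO 2 it was -0.35 (edgeR adjusted p-value 0.0298). For KO 2 and KO 3 against WT that of Kcnv2 was -0.043 (edgeR adjusted p-value 0.903), and for KO 4 to KO 6 against WT it was -0.38 (edgeR adjusted p-value 0.000116). The value of -0.043 averaged opposite ones: KO 2, at 585 CPM, was above every WT library, and KO 3, at 447 CPM, was below. KO 4 to KO 6 had 398, 409 and 409 CPM. In limma voom with quality weights Kcnv2 was at -0.36 (limma adjusted p-value 0.00117). Because the transcript was abundant in every library and the groups overlapped through KO 2, KO is used below only as the label of a library. These libraries did not form a single set: the share of counts from mitochondrially encoded genes was 7.09% to 7.92% for WT, 6.52% for KO 2, 5.23% for KO 3 and 3.03% to 3.70% for KO 4 to KO 6. KO 4 to KO 6 also stood apart in an earlier look at these data, so results are also given for KO 2 and KO 3 against WT and for KO 4 to KO 6 against WT. As these sets were drawn from the same data, the adjusted p-values for KO 4 to KO 6 against WT may be too small. The labels name no batch, and no WT library lies with KO 4 to KO 6, so a batch and the label cannot be told apart there. Lens genes took 5.00% of counts in KO 3 and at most 0.170% elsewhere. Rod markers such as rhodopsin were abundant in all libraries, with 37200 to 54880 CPM summed over 8 genes, as the retina label requires.

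Of the 10 members, 1 was called in edgeR's quasi-likelihood test at a Benjamini-Hochberg adjusted p-value under 0.05, and it was higher: the survival gene Bcl2. Among all 20167 tested genes, 7.58% were called, 4.74% higher and 2.84% lower. The other 9 members had log2 fold changes between -0.20 and 0.35 and adjusted p-values of 0.0611 to 0.975. Without adjustment, 3 of the 10 had a p-value under 0.05, where 27.3% of all tested genes did. For 4 members the groups did not overlap, 3 with every library labelled KO above every WT library and 1 below, while 20.9% of all tested genes were without overlap. The median log2 fold change was 0.083 over the members and 0.0007 over all tested genes. In this fit the share of members called was near that of all genes. Without WT 1, WT 2, WT 3, KO 4, KO 5 or KO 6, the 1 member called was Bcl2, where 0.636%, 0.646%, 0.955%, 1.84%, 1.94% and 2.68% of all genes were called. Without KO 2, 1 member and 13.9% of all genes were called, and without KO 3, 3 members and 20% of all genes. Scaling by library size alone gave 566 genes higher and 787 lower, against 956 and 573 with TMM. The balance of directions over all genes thus depended on the scaling.

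**Figure D1:**
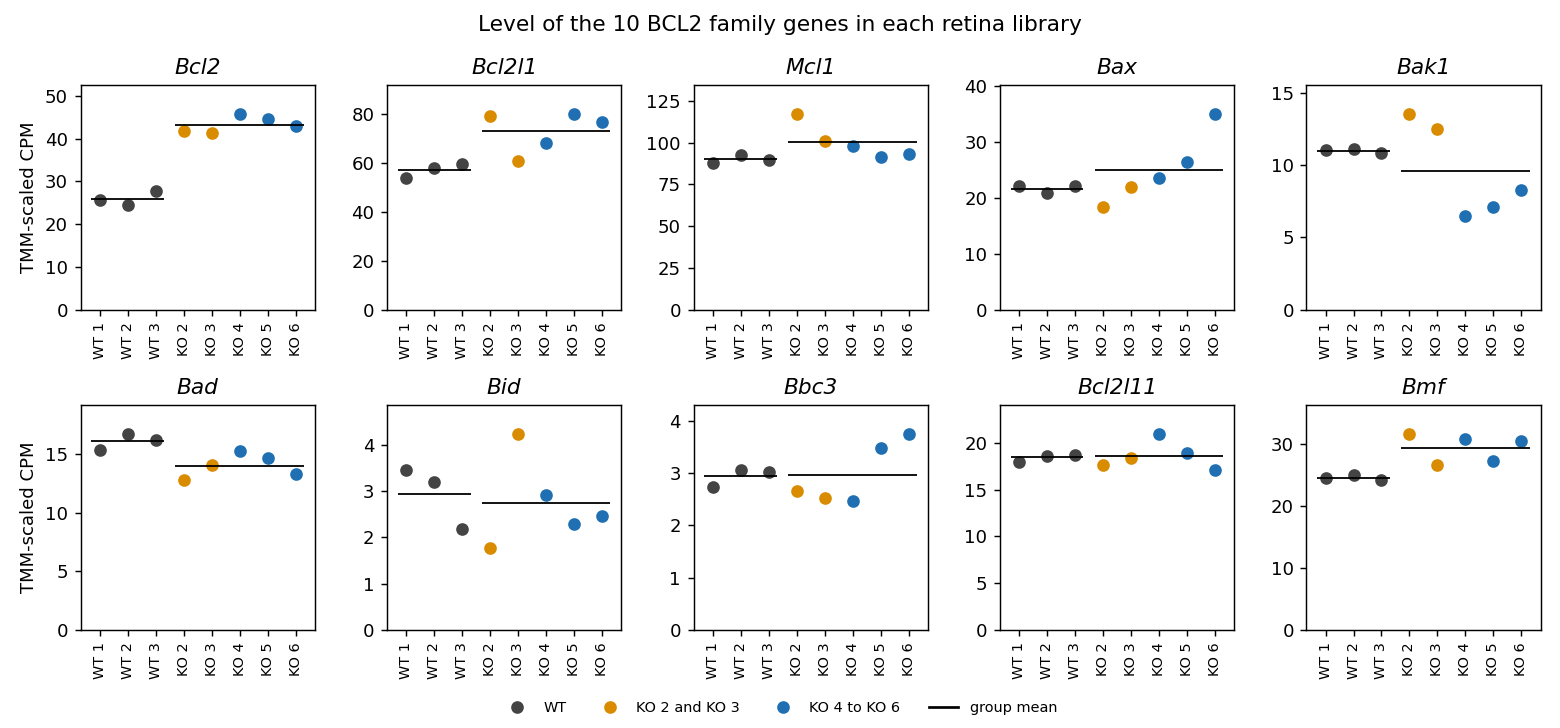
Level of each of the 10 genes (TMM-scaled CPM, axes from 0) in the 8 libraries, with WT in grey, KO 2 and KO 3 in orange, KO 4 to KO 6 in blue and lines at the group means. Bcl2 is at 24.5 to 27.8 CPM in WT and at 41.3 to 45.7 CPM in the libraries labelled KO, and Bak1 is above WT in KO 2 and KO 3 and below it in KO 4 to KO 6.

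The promoter of Bcl2 is shown because this was the member that changed, and that of Bcl2l11 because it holds a match to the forkhead (FOXO) motif and the gene is a known target of FOXO factors. Both are the 250 bases before a transcription start in RefSeq on GRCm38.p6. The Bcl2 window is chr1:106714291-106714540 on the minus strand, and the Bcl2l11 window is chr2:128125788-128126037 on the plus strand. Bases are in lower case, and capitals mark the only match to any of the motifs searched.
Bcl2: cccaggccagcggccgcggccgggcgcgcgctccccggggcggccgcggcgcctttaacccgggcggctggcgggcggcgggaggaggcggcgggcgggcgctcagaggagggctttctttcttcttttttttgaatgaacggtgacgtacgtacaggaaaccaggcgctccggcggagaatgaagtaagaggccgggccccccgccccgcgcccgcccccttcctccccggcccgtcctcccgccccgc
Bcl2l11: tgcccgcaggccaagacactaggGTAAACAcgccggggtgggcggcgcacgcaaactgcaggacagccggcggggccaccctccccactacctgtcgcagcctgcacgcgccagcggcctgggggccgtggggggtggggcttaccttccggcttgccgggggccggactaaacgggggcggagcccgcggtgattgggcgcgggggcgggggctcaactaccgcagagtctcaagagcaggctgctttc

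The Bcl2 window is 74.8% G and C with 36 CG pairs, against a median of 52.4% and 6 pairs over 32851 promoter windows of the same length. The motifs were searched on both strands in the 18 windows of the 10 members: TTCNNNGAA (STAT), TGANTCA (AP-1), TGACGTCA (CRE) and TGTTTAC (FOXO). These motifs occur in 7.02% (STAT), 6.75% (AP-1), 1.55% (CRE) and 3.17% (FOXO) of all windows. The FOXO letters were found in 2 member windows, that of Bcl2l11 printed above, on the opposite strand, and 1 of Bbc3. The other 3 motifs were found in none of the member windows, which says only that those letters are not in these windows.

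Among the survival genes, Bcl2 (ENSMUSG00000057329, chromosome 1, minus strand, GRCm38 106538178 to 106714274) encodes the founding inhibitor of mitochondrial apoptosis. WT 1 to WT 3 had 25.7, 24.5 and 27.8 CPM. The libraries labelled KO 2 to KO 6 had 41.8, 41.3, 45.7, 44.6 and 43.0 CPM. Every library labelled KO was above every WT library, and the 5 values lay close together although these libraries differ in much else. The counts behind these levels were 468 to 626 in WT and 869 to 962 in the libraries labelled KO. The mean rose from 26.0 ± 1.70 CPM (SD, n = 3) to 43.3 ± 1.85 CPM (SD, n = 5), a fold of 1.67. The log2 fold change was 0.74 (SE 0.09, 95% interval 0.53 to 0.95; edgeR adjusted p-value 0.00193), and the gene ranked 42nd by p-value. In bulk retina, here as for the genes below, a change in the number of cells of a type and a change in RNA per cell cannot be told apart.

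The rise of Bcl2 was found in both sets of libraries labelled KO. For KO 2 and KO 3 against WT the log2 fold change was 0.68 (SE 0.10, edgeR adjusted p-value 0.0277), in a fit that called 0.891% of all genes. For KO 4 to KO 6 against WT it was 0.78 (SE 0.07, edgeR adjusted p-value 6.89e-06), in a fit that called 42.8% of all genes. Both fits share the WT libraries. Over the 18 fits that left out 1 library or a pair of libraries labelled KO, the log2 fold change was 0.70 to 0.79 and Bcl2 was called each time, with a largest edgeR adjusted p-value of 0.0351. With a correction for the GC content of transcripts it was 0.81 (edgeR adjusted p-value 0.000959), where 7.04% of genes were called.

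Bcl2l1 (ENSMUSG00000007659, chromosome 2), whose long product BCL-XL protects neurons and whose short splice form promotes death, was next. WT 1 to WT 3 held 53.6, 57.9 and 59.6 CPM, and KO 2 to KO 6 held 78.8, 60.6, 68.1, 79.7 and 76.4 CPM. No library labelled KO fell below a WT library, but KO 3 was close to WT 3. Bcl2l1 had a log2 fold change of 0.35 (SE 0.10, 95% interval 0.10 to 0.60), with an edgeR adjusted p-value of 0.0611. It was called for KO 4 to KO 6 against WT (0.40, edgeR adjusted p-value 0.000917) and without KO 3 (0.42, edgeR adjusted p-value 0.00947), and not for KO 2 and KO 3 against WT (0.29, edgeR adjusted p-value 0.242). Under the GC correction its log2 fold change was 0.15 (edgeR adjusted p-value 0.307). DESeq2 and limma voom called Bcl2l1, at 0.36 (DESeq2 adjusted p-value 0.0233) and 0.38 (limma adjusted p-value 0.00226), where they called 18.2% and 40.9% of all genes. The gene count pools the long and short forms.

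Mcl1 (ENSMUSG00000038612, chromosome 3), a short-lived survival protein, was at 87.7, 92.7 and 89.8 CPM in WT and at 117, 101, 97.9, 91.5 and 92.9 CPM in KO 2 to KO 6. The groups overlapped, and KO 2 was the highest. Its log2 fold change was 0.15 (SE 0.09, 95% interval -0.08 to 0.38; edgeR adjusted p-value 0.320). Mcl1 was at 0.28 for KO 2 and KO 3 against WT (edgeR adjusted p-value 0.181), at 0.074 for KO 4 to KO 6 against WT (edgeR adjusted p-value 0.345) and at 0.090 without KO 2 (edgeR adjusted p-value 0.360).

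**Figure D2:**
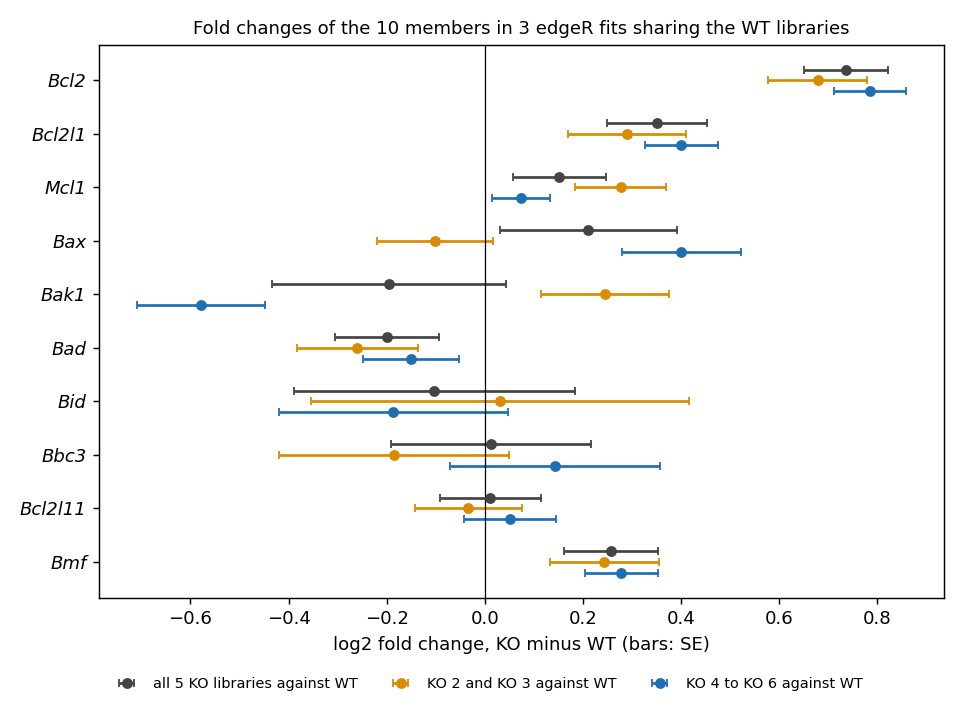
Log2 fold change with SE of each member against the same 3 WT libraries, for all 5 libraries labelled KO (grey), for KO 2 and KO 3 (orange) and for KO 4 to KO 6 (blue). Bcl2 is at 0.74, 0.68 and 0.78 in these fits, while Bak1 is at -0.20, 0.24 and -0.58.

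Of the pore-forming effectors, Bax (ENSMUSG00000003873, chromosome 7) was at 22.1, 20.8 and 22.0 CPM in WT and at 18.4, 21.9, 23.6, 26.4 and 34.9 CPM in KO 2 to KO 6. KO 2 was the lowest and KO 6 the highest of all 8 libraries, so the groups overlapped. Its log2 fold change was 0.21 (SE 0.18; edgeR adjusted p-value 0.476), and without KO 6 that of Bax was 0.062 (edgeR adjusted p-value 0.820). The value was -0.10 for KO 2 and KO 3 against WT (edgeR adjusted p-value 0.678) and 0.40 for KO 4 to KO 6 against WT (edgeR adjusted p-value 0.0178). Under the GC correction it was -0.09 (edgeR adjusted p-value 0.650). Its longest transcript is 63.5% G and C.

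Bak1 (ENSMUSG00000057789, chromosome 17), the partner of Bax in forming pores, was at 11.0, 11.1 and 10.8 CPM in WT. KO 2 and KO 3 had 13.5 and 12.5 CPM, and KO 4 to KO 6 had 6.45, 7.10 and 8.29 CPM. KO 2 and KO 3 were above every WT library and KO 4 to KO 6 below, so the overall log2 fold change of -0.20 (SE 0.24; edgeR adjusted p-value 0.631) averaged opposite values. It was -0.37 under the GC correction (edgeR adjusted p-value 0.462) and -0.55 in limma voom with quality weights, which called Bak1 (limma adjusted p-value 0.00901) and 40.9% of all genes. Leaving out 1 library labelled KO gave Bak1 values from -0.35 (without KO 2) to -0.083 (without KO 4), none of them called by edgeR. The values of the 2 sets were 0.24 for KO 2 and KO 3 against WT (edgeR adjusted p-value 0.345) and -0.58 for KO 4 to KO 6 against WT (edgeR adjusted p-value 0.00319). The difference between these sets was not tested, and their mitochondrial shares of counts differ as given above; the part of that difference in the Bak1 values was not tested.

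The counts of Bax were also set against those of Bcl2 within each library, a ratio that does not depend on the scaling. It is not corrected for GC content, which is 63.5% for the longest transcript of Bax and 46.3% for that of Bcl2. Nor is it corrected for their lengths of 1100 and 7191 bases, so its sign does not compare numbers of transcripts. The log2 ratio of Bax to Bcl2 counts was -0.215, -0.233 and -0.338 in WT 1 to WT 3. It was -1.178, -0.915, -0.951, -0.755 and -0.302 in KO 2 to KO 6. KO 6, the library with the most Bax, lay among the WT values, and the other 4 libraries labelled KO lay below all of them. WT averaged -0.26 ± 0.07 (SD, n = 3), and the libraries labelled KO averaged -0.82 ± 0.33 (SD, n = 5). The difference of -0.56 is given as a description, with no test. It was -0.79 for KO 2 and KO 3 and -0.41 for KO 4 to KO 6.

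**Figure D3:**
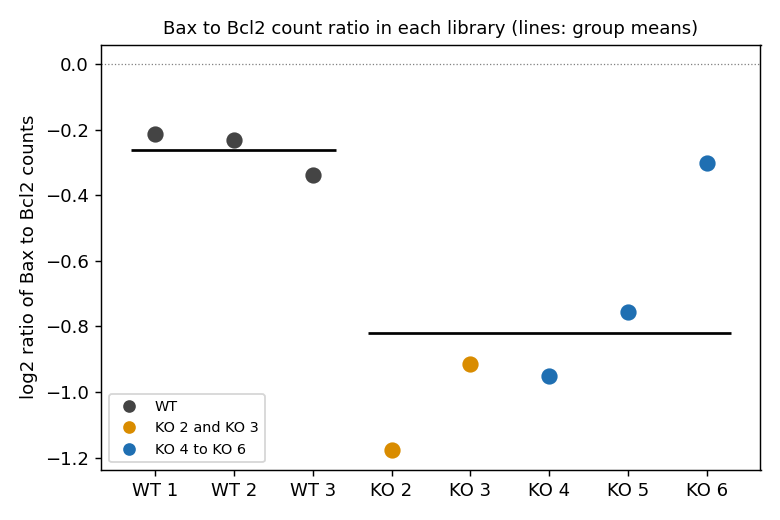
Log2 ratio of Bax to Bcl2 counts in each library, with lines at the group means of -0.26 in WT and -0.82 in the libraries labelled KO. KO 2 is the lowest at -1.178, and KO 6, at -0.302, lies within the WT values.

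Among the BH3-only genes, which carry death signals, the edgeR test of all libraries called 0 of 5, and 1 of them, Bmf, had an unadjusted p-value under 0.05, beside 7.58% and 27.3% of all tested genes. DESeq2, which called 18.2% of all genes it tested, also called 0 of these. The fit of limma voom with quality weights called Bmf, where it called 40.9% of all genes, and edgeR with the GC correction called Bad, where it called 7.04%. Bmf (ENSMUSG00000040093, chromosome 2), a sensor tied to the cytoskeleton, was at 24.5, 25.1 and 24.2 CPM in WT and at 31.6, 26.6, 30.8, 27.3 and 30.6 CPM in KO 2 to KO 6. Every library labelled KO was above every WT library. Bmf had a log2 fold change of 0.26 (SE 0.10, 95% interval 0.02 to 0.49), with an edgeR adjusted p-value of 0.114. It was 0.24 for KO 2 and KO 3 against WT (edgeR adjusted p-value 0.280) and 0.28 for KO 4 to KO 6 against WT (edgeR adjusted p-value 0.00914). Without KO 3 it was called, at 0.30 (edgeR adjusted p-value 0.0368), and under the GC correction Bmf was at 0.11 (edgeR adjusted p-value 0.483).

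Bad (ENSMUSG00000024959, chromosome 19), whose product is held inactive by survival kinases, was at 15.4, 16.7 and 16.2 CPM in WT and at 12.8, 14.1, 15.3, 14.7 and 13.3 CPM in KO 2 to KO 6. Every library labelled KO was below every WT library, though KO 4 was close to WT 1. The log2 fold change was -0.20 (SE 0.11, 95% interval -0.46 to 0.06; edgeR adjusted p-value 0.250). Under the GC correction it was -0.41, with an edgeR adjusted p-value of 0.0497, just past the threshold. Bad was at -0.26 for KO 2 and KO 3 against WT (edgeR adjusted p-value 0.295) and at -0.15 for KO 4 to KO 6 against WT (edgeR adjusted p-value 0.239).

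Bcl2l11 (ENSMUSG00000027381, chromosome 2), which encodes BIM, was at 18.0, 18.6 and 18.7 CPM in WT and at 17.6, 18.4, 20.9, 18.9 and 17.1 CPM in KO 2 to KO 6. The groups overlapped, and the log2 fold change was 0.01 (SE 0.10, 95% interval -0.24 to 0.26; edgeR adjusted p-value 0.957). Bbc3 (ENSMUSG00000002083, chromosome 7), which encodes PUMA, a target of p53, was low, at 2.74 to 3.06 CPM in WT and 2.46 to 3.74 CPM in the libraries labelled KO, on 50 to 82 counts. Its log2 fold change was 0.01 (SE 0.20, 95% interval -0.48 to 0.51; edgeR adjusted p-value 0.975), and under the GC correction Bbc3 was at -0.30 (edgeR adjusted p-value 0.298). Bid (ENSMUSG00000004446, chromosome 6), which links death receptors to mitochondria, was at 2.18 to 3.45 CPM in WT and 1.78 to 4.23 CPM in the libraries labelled KO, on 41 to 89 counts. The log2 fold change was -0.10 (SE 0.29, 95% interval -0.80 to 0.60; edgeR adjusted p-value 0.851), and over the fits that left out 1 library that of Bid was -0.31 (without KO 3) to 0.025 (without WT 1). Changes of Bid or Bbc3 within those intervals cannot be seen in these libraries. For KO 2 and KO 3 and then for KO 4 to KO 6 against WT, the log2 fold changes were -0.034 and 0.051 for Bcl2l11, -0.19 and 0.14 for Bbc3, and 0.031 and -0.19 for Bid, none of them called by edgeR.

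**Figure D4:**
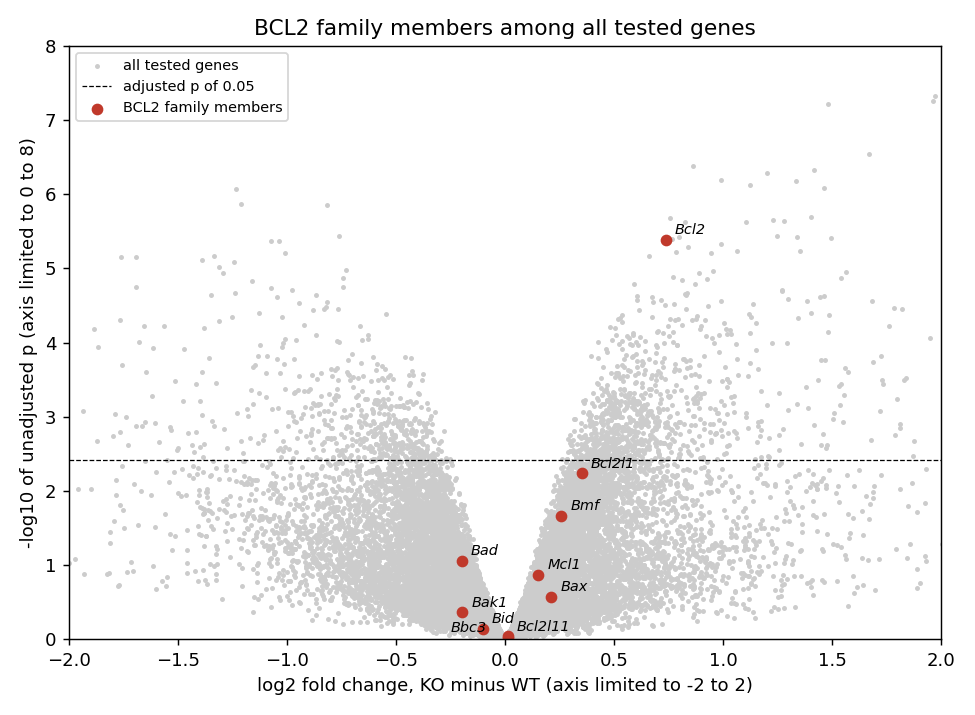
Log2 fold change (horizontal axis, limited to 2 in each direction) against -log10 of the unadjusted p-value (vertical axis, limited to 0 to 8) for all tested genes in grey and the 10 members in red, with the dashed line at an adjusted p-value of 0.05. Bcl2 is the only member above the line, and Bcl2l1 lies just below it.

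Levels of different genes were compared per kilobase of the longest transcript in GENCODE M21, a length that the dominant isoform in retina may not have. On that scale Mcl1 was highest in WT, at 26.4 ± 0.735 CPM per kilobase (SD, n = 3), followed by Bcl2l1 at 22.2 ± 1.20 and Bax at 19.7 ± 0.658. Bad (10.5 ± 0.428), Bmf (5.30 ± 0.0987), Bak1 (4.59 ± 0.0640), Bcl2l11 (3.66 ± 0.0752), Bcl2 (3.62 ± 0.232), Bbc3 (1.62 ± 0.0961) and Bid (1.22 ± 0.279) followed. Bcl2l11 and Bcl2 differed by less than their spread. With the label KO, Bcl2 reached 6.02 ± 0.258 CPM per kilobase (SD, n = 5), beside Bmf at 6.33 ± 0.488, a difference larger than the SD of Bcl2 and smaller than that of Bmf. Bcl2 thus had a low level per length among the survival genes in both groups.

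Several members share sequence with an overlapping gene, and no strand setting is given in the sources used here. Exons of Bak1 overlap Ggnbp1, those of Bad overlap Gpr137, and those of Bid overlap Bcl2l13, each on the opposite strand. Of the 31-base words of these transcripts, 20.4% for Bak1, 18.4% for Bad and 16.9% for Bid occur in another gene, so their counts are uncertain. Exons of Bax overlap Gm45808 on the same strand, and 11.1% of the words of Bax occur in Gm45808 or other genes. Bcl2 overlaps D630008O14Rik on the opposite strand, and 6.21% of the words of Bcl2 occur in D630008O14Rik or other genes. Ggnbp1 and Gpr137 were not called, with log2 fold changes of 0.16 (SE 0.33) and 0.28 (SE 0.15) and edgeR adjusted p-values of 0.800 and 0.273. Ggnbp1 had 1.43 and 2.42 CPM in KO 2 and KO 3 and 3.45, 2.04 and 4.33 CPM in KO 4 to KO 6. Bcl2l13, at 69.1 to 72.6 CPM in WT, was not called either (0.11, SE 0.09, edgeR adjusted p-value 0.481). It was highest in KO 3, at 88.6 CPM, where Bid was also highest, at 4.23 CPM. The part of these genes in the counts of the members was not tested.

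The pattern of Bcl2 over the 8 libraries was most like that of Sptan1 (Pearson r 0.9937), Rdh16f1 (0.9915) and Nin (0.9898) among 12896 genes. This is a description only: the points share their libraries and the label, and such genes were picked for their likeness. Sptan1, which encodes alpha-II spectrin, was at 453 to 475 CPM in WT and 649 to 736 CPM in the libraries labelled KO. Nin, which encodes the centrosomal protein ninein, was at 70.6 to 74.8 CPM in WT and 170 to 232 CPM in the libraries labelled KO.

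Other genes of the pathway were taken from lists of 16 further family members, 18 genes downstream of the family and 25 of its regulators and p53 targets. The counts over these lists are those of the edgeR fit of all libraries. Of the further family members, 11 were tested, and 0 rose and 1 fell, where 4.74% of all tested genes rose and 2.84% fell. Bnip3, a BH3-like gene known for mitophagy and the response to low oxygen, fell from 160 ± 11.2 CPM (SD, n = 3) to 107 ± 15.3 CPM (SD, n = 5). Bnip3 had a log2 fold change of -0.58 (SE 0.12, edgeR adjusted p-value 0.0251), and it was -0.38 for KO 2 and KO 3 against WT (edgeR adjusted p-value 0.119) and -0.71 for KO 4 to KO 6 against WT (edgeR adjusted p-value 1.81e-05). Under the GC correction Bnip3 was at -0.36 (edgeR adjusted p-value 0.0216). Bnip3 lost the call without WT 1 (-0.57), WT 2 (-0.52), WT 3 (-0.63), KO 4 (-0.56) or KO 5 (-0.56), with edgeR adjusted p-values of 0.0635 to 0.126. Bcl2l2, which encodes the survival protein BCL-W, had a mean of 217 ± 14.5 CPM for WT (SD, n = 3) against 195 ± 26.1 CPM for KO (SD, n = 5), and was not called (edgeR adjusted p-value 0.438).

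Downstream of the family, 0 of 18 tested genes rose and 1 fell, against 4.74% and 2.84% of all tested genes. Cycs, the somatic cytochrome c that carries electrons in respiration and triggers the apoptosome when released, fell from 51.2 ± 7.59 CPM (SD, n = 3) to 32.1 ± 5.27 CPM (SD, n = 5). Cycs had a log2 fold change of -0.67 (SE 0.14, edgeR adjusted p-value 0.0259), and it was -0.45 for KO 2 and KO 3 against WT (edgeR adjusted p-value 0.144) and -0.83 for KO 4 to KO 6 against WT (edgeR adjusted p-value 6.5e-05). Under the GC correction Cycs was at -0.43 (edgeR adjusted p-value 0.0307). Leaving out WT 1 (-0.71), WT 2 (-0.54), WT 3 (-0.76), KO 4 (-0.65) or KO 5 (-0.66) ended the call of Cycs, at edgeR adjusted p-values from 0.0646 to 0.139. The scaffold Apaf1 (-0.16, edgeR adjusted p-value 0.375) and the initiator Casp9 (0.12, edgeR adjusted p-value 0.412) were not called by edgeR. Birc2 (-0.33, edgeR adjusted p-value 0.0547) and Diablo (-0.26, edgeR adjusted p-value 0.0731) were not called either. Both were below every WT library in every library labelled KO, where 20.9% of all tested genes were without overlap. Birc2 was called with library size alone (-0.36, edgeR adjusted p-value 0.0242) and by DESeq2 (-0.32, DESeq2 adjusted p-value 0.0351), which called 6.71% and 18.2% of all genes. The median log2 fold change of the 18 genes was -0.063. Limma voom with quality weights called Apaf1, Cycs, Diablo, Xiap and Birc2 lower and Endog and Vdac2 higher, where it called 40.9% of all genes.

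**Figure D5:**
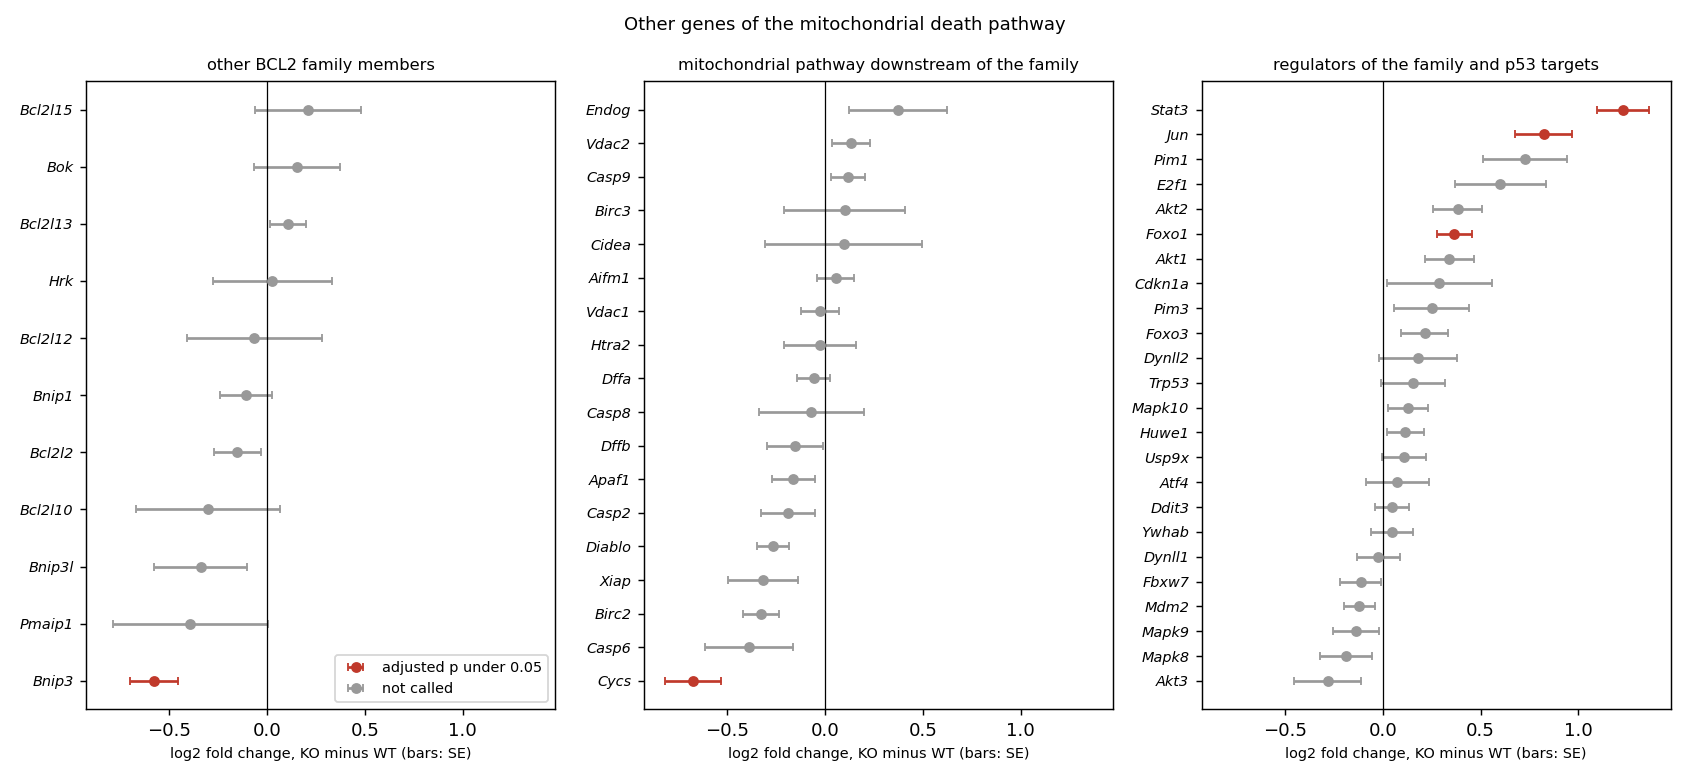
Log2 fold change with SE of the tested genes of 3 pathway lists, with called genes in red and the others in grey. Cycs and Bnip3 lie lower, and Stat3, Jun and Foxo1 lie higher, in the libraries labelled KO.

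Of the regulators, 24 were tested, and 3 rose and 0 fell, beside 4.74% and 2.84% of all tested genes. Of these, Stat3 was listed with its rise in these data already known. Stat3, a factor known to induce Bcl2, Bcl2l1 and Mcl1 in other settings, rose from 57.9 ± 4.29 CPM (SD, n = 3) to 136 ± 21.1 CPM (SD, n = 5). Stat3 had a log2 fold change of 1.23 (SE 0.13, edgeR adjusted p-value 0.00139). For KO 2 and KO 3 against WT that of Stat3 was 1.02 (edgeR adjusted p-value 0.00567), and for KO 4 to KO 6 it was 1.36 (edgeR adjusted p-value 4.24e-07). Jun, an AP-1 factor, rose from 32.9 ± 2.13 CPM (SD, n = 3) to 58.2 ± 10.6 CPM (SD, n = 5), with a log2 fold change of 0.82 (SE 0.14, edgeR adjusted p-value 0.0138). For KO 2 and KO 3 against WT that of Jun was 0.52 (edgeR adjusted p-value 0.0593), and for KO 4 to KO 6 it was 1.01 (edgeR adjusted p-value 1.79e-06). Jun was not called without WT 1 (0.88), WT 2 (0.80) or WT 3 (0.80), at edgeR adjusted p-values from 0.0628 to 0.0906. Foxo1, a forkhead factor, rose from 23.4 ± 0.886 CPM (SD, n = 3) to 30.2 ± 1.36 CPM (SD, n = 5), with a log2 fold change of 0.37 (SE 0.09, edgeR adjusted p-value 0.0368). For KO 2 and KO 3 against WT it was 0.33 (edgeR adjusted p-value 0.160), and for KO 4 to KO 6 it was 0.40 (edgeR adjusted p-value 0.000713). Foxo1 was called only with all libraries or without KO 2 (0.36) or KO 3 (0.40) among the fits that left out at most 1 library, and its edgeR adjusted p-values were 0.0785 to 0.156 in the other 6. Scaling by library size alone also ended the call of Foxo1 (0.33, edgeR adjusted p-value 0.0661). The p53 gene Trp53 (0.16) and its targets Cdkn1a (0.29) and Mdm2 (-0.12) were not called (edgeR adjusted p-values 0.575, 0.512 and 0.365). The median log2 fold change of the 24 genes was 0.143.

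Marker lists of cells that could carry the transcripts of Bcl2 were summed beside it, and their calls read against the 7.58% of all tested genes called. Ganglion cell markers gave 832 to 910 CPM in WT and 807 to 1079 CPM in the libraries labelled KO, with 0 of 6 called. Muller glia markers gave 3077 to 3264 and 3085 to 4682 CPM, with 2 of 6 higher. For ganglion cells and Muller glia the highest sum was that of KO 2, and the other libraries labelled KO reached 884 and 3524 CPM. Microglia markers gave 22.9 to 25.8 and 28.6 to 40.8 CPM, with 2 of 6 higher, and endothelium and pericyte markers gave 98.4 to 113 and 120 to 137 CPM, with 1 of 5 higher. Cone markers gave 939 to 1176 and 676 to 899 CPM, with 1 of 7 higher and 3 lower. The sums of rod, of bipolar, and of amacrine and horizontal cell markers overlapped between groups. Of these, 1 of 8 rod markers was higher, and 1 of 6 bipolar and 1 of 6 amacrine and horizontal markers were lower. Genes of the retinal stress list, such as Gfap and Lif, were also higher: their sum was 126 to 141 CPM in WT and 310 to 549 CPM in the libraries labelled KO, with 9 of 9 higher and a median log2 fold change of 2.075. That list was put together with earlier results of these data known, and it holds Stat3. The sums of the retinal stress, microglia, endothelium and pericyte, and cone lists did not overlap between groups, as was so for 20.9% of single genes, and their part in the rise of Bcl2 was not tested.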

How the data were processed

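Counts per gene for 8 retina libraries were used as the authors deposited them, as whole numbers whose totals differ between libraries. The submitters' processing notes name Trim Galore, Salmon 1.10.2, DESeq2 and the GRCm38 genome, without their roles. The annotation release and strand setting are not given in the sources used here. Salmon estimates counts, so reads of overlapping genes may be divided between them. The smallest total of a deposited gene was 16 counts.

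Counts were scaled by TMM in edgeR 4.0.16 (R 4.3.3), filtered with filterByExpr, and compared with the quasi-likelihood test. The fit held all 8 libraries and no covariates, and the Benjamini-Hochberg adjustment covered all tested genes. SEs came from the fold change and F statistic, and 95% intervals from the t distribution with 6 residual degrees of freedom. CPM are TMM-scaled, log2 CPM have a prior count of 2, and so has the Bax to Bcl2 ratio. A level of 3 counts equals 0.130 to 0.164 CPM, which covers counting error only. No pair of libraries of a group agreed within sampling noise (chi-square per degree of freedom at least 5.38). The labels number libraries but do not say more of their origin than that each is an individual mouse.

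The members and lists were chosen with earlier results of these data known. All members, Kcnv2, each called gene of the pathway lists, and the 3 genes most like the member of smallest p-value were named; other uncalled pathway genes, the overlapping genes and markers were picked for illustration. Some pathway genes are not reported here and are left out of the counts over the lists. GENCODE M21 (GRCm38) gave lengths, GC content, overlaps and shared 31-base words, and RefSeq gave promoters for all 10 members. The edgeR fit was checked on simulated counts. Alternatives were other scalings and filters, DESeq2 1.42.0, limma voom 3.58.1, robust estimation, GC correction of 18028 genes, left-out gene groups and left-out libraries. The numbers 2 and 3 occur in both groups without a stated pairing.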

Additional observations from a re-analysis of the deposited data

How the results depend on the processing

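Bcl2 was higher in the libraries labelled KO in all 32 alternatives (log2 fold change 0.67 to 0.81) and was called in 30. The exceptions were the fit of WT 2, WT 3, KO 2 and KO 3 with the replicate number as a block (replicate block, 0.67, edgeR adjusted p-value 0.163) and the same 4 libraries with the numbers ignored (0.67, edgeR adjusted p-value 0.192), which hold fewer samples. These called 52 and 14 genes in all and 0 members each. Same-numbered libraries deviated with a correlation of -0.19, so a crossed replicate block was added after the data were seen: it called 527 genes and 1 member, Bcl2. Its pairing was picked from these same data, so its call of Bcl2, which is among the 30, is not a separate support.

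The number of genes called depended on the libraries, against 1529 with all: 118 (without KO 4 and KO 5) to 8416 (without KO 2 and KO 3) over the fits that left out 1 or 2 libraries, with 1 to 5 members. Leaving out 1 library gave 132 genes (WT 1), 135 (WT 2), 199 (WT 3), 2781 (KO 2), 3992 (KO 3), 365 (KO 4), 388 (KO 5) and 531 (KO 6). KO 2 and KO 3 against WT called 180 genes. DESeq2 called 3066 genes and 2 members (Bcl2, Bcl2l1), and limma voom with quality weights called 8248 genes and 4 members (Bcl2, Bcl2l1, Bmf, Bak1). The GC correction called 1269 genes and 2 members (Bcl2, Bad). The cause of these differences was not tested.

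Directions of 5 uncalled members reversed. For Bax, KO 2 and KO 3 against WT gave -0.10, and the values were -0.090 with the replicate block, -0.091 crossed, -0.086 with the numbers ignored and -0.094 with the GC correction. Bak1 was at 0.24 in that comparison, with the block, crossed or ignored. For Bid these were 0.031 in that comparison, 0.076 with the block, 0.078 crossed and 0.16 ignored. Bbc3 was at -0.014 with library size alone, -0.19 in the comparison of KO 2 and KO 3, -0.23 with the block, crossed or ignored, and -0.30 with the GC correction. Bcl2l11 was at -0.019 with library size alone, -0.034 in the comparison of KO 2 and KO 3, and -0.052 with the block, crossed or ignored. Over the fits that left out libraries, Bax ranged from -0.021 to 0.40, Bak1 from -0.58 to 0.060, Bid from -0.43 to 0.13, Bbc3 from -0.21 to 0.16 and Bcl2l11 from -0.056 to 0.077. The difference in the Bax to Bcl2 ratio was -0.69 to -0.47 over the fits that left out 1 library, -0.79 for KO 2 and KO 3 against WT and -0.41 for KO 4 to KO 6 against WT, a comparison added after the data were seen. Of the called pathway genes, which kept their direction in all alternatives, Stat3 was called in 31 of 32, Jun in 23, Bnip3 and Cycs in 18 each and Foxo1 in 15. For Stat3 and Jun these include the crossed block. Bid and Bbc3 had at most 89 counts in a library; how far depth sets their intervals was not tested. No value of the 5 libraries labelled KO stood apart from the rest by more than 0.71 of their range, among 17 values examined. The largest gap was that of Kcnv2 in KO 2, at 0.698. This check looks for 1 outlying library, so it cannot find a split into sets such as that of Bak1.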
